A study of Mus musculus with 6 samples.

Results

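The genes described here are 37 protein-coding genes of the mouse whose genomic spans hold annotated microRNA (miRNA) hairpins, out of 21978 entries in the count table. They were chosen by symbol from a list, and all 37 were present and had at least 1 annotated hairpin in their span (GENCODE M21, GRCm38). The list was drawn up with earlier results of these counts known, among them that counts over Nlrp12 were higher in E518K and in KO than in wt, so the differences of Nlrp12 are described without a test. The data are poly(A) RNA-seq of mouse embryonic stem cells, with 3 groups of 2 libraries. The E518K cells (clones 8 and 15) held Flag-tagged DGCR8 with the E518K substitution, delivered by a transposon vector, and had the genotype label DGCR8 E518K/E518K. The KO cells (libraries 1 and 3) were labelled DGCR8 -/- and not transfected, and both titles carry clone number 261. The wt cells (clones 12 and 16) carried the same kind of vector with wild-type Flag-tagged DGCR8 and had the genotype label DGCR8 wt/wt. Doxycycline at 300 ng/mL was given to all 3 groups for 48 h, and culture was without feeders in medium with leukemia inhibitory factor and the inhibitors CHIR99021 and PD0325901. The comparisons ask what differs without DGCR8, with the substituted protein, and between the 2 states.

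A miRNA is cut from a longer primary transcript as a hairpin by the nuclease Drosha and its RNA-binding partner DGCR8, which together form the Microprocessor. Many hairpins lie in introns of protein-coding genes, from which they are released while the host transcript is being made, whereas others belong to separate transcripts that run across a gene, on either strand. In mouse embryonic stem cells the miR-290 cluster is the best-known source of miRNAs, and the miR-302 cluster shares its seed, the stretch of bases by which a miRNA recognises its targets. The counts used here cover both exons and introns of a gene without regard to strand, so reads from a transcript that overlaps a host gene add to the count of that gene.

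The libraries held 73642784 to 75121971 counts. Dgcr8, measured as a check of the labels, stood at 820.6 and 420.2 CPM (counts scaled to library size with TMM factors) in E518K clones 8 and 15, 40.0 and 37.1 CPM in the KO libraries, and 196 and 992.4 CPM in wt clones 12 and 16. The clones within E518K and within wt differed widely, and these 2 groups overlapped, whereas both KO libraries were low. All 9 stem cell markers were present, with summed levels of 6494 to 6510 CPM in E518K, 5358 to 5456 CPM in KO and 6142 to 7155 CPM in wt. The sum was lowest in KO, but not every marker had its order. Tfcp2l1 was highest in KO (558.8 and 577.8 CPM in E518K, 831.4 and 829.8 CPM in KO, 746.1 and 705.6 CPM in wt). Summed over 4 fibroblast markers the levels were 3.22 to 3.92 CPM in E518K, 4.73 to 5.08 CPM in KO and 7.36 to 7.39 CPM in wt, and over 3 blood markers they were 1.34 to 1.78 CPM in E518K, 1.22 to 1.54 CPM in KO and 2.33 to 3.21 CPM in wt. Sums over markers of early lineages differed as well, but single genes carried much of these sums. The 3 trophectoderm markers summed to 10.2 to 12.1 CPM in E518K, 4.54 to 4.93 CPM in KO and 17.12 to 17.96 CPM in wt. Ascl2 had this order (7.08 and 5.35 CPM in E518K, 1.435 and 1.426 CPM in KO, 12.01 and 14.58 CPM in wt). Cdx2 did not, and was lowest in wt (3.72 and 3.50 CPM in E518K, 1.89 and 2.07 CPM in KO, 1.63 and 0.51 CPM in wt). The 4 mesoderm markers summed to 30.7 to 32.2 CPM in E518K, 15.3 to 16.8 CPM in KO and 27.7 to 30.9 CPM in wt. Most of this was Eomes (28.65 and 27.86 CPM in E518K, 13.71 and 14.44 CPM in KO, 25.55 and 28.67 CPM in wt), and 2 of the 4 were under 1 CPM in every library. The 4 endoderm markers summed to 1.15 to 2.06 CPM and the 3 neural markers to 12.2 to 15.2 CPM over the 6 libraries. Within the neural sum, Pax6 was highest in KO (1.17 and 1.37 CPM in E518K, 2.59 and 2.76 CPM in KO, 0.11 and 0.41 CPM in wt). Sox1 was lowest in KO (3.58 and 5.24 CPM in E518K, 1.81 and 2.31 CPM in KO, 3.97 and 2.84 CPM in wt). The part of these markers in the results was not tested. In bulk RNA, fewer cells that express a gene and less of its RNA per cell cannot be told apart.

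The 37 spans hold 66 hairpins, 45 on the strand of the gene and 21 on the opposite strand. Of these, 48 lie within introns and 18 overlap an annotated exon. In 27 genes every hairpin is on the strand of the gene, in 5 genes every hairpin is on the opposite strand (Larp7, Dnm2, Dnm3, Kdelc2 and Iars2), and 5 genes hold both kinds. The mature sequences of the clusters in Nlrp12, Larp7 and Mcm7 are shown because these clusters share seed letters. Sequences are from RefSeq (GRCm38.p6), run 5′ to 3′, and the seed, bases 2 to 8, is in capitals. For Nlrp12:
miR-291a-3p: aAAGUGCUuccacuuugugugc
miR-294-3p: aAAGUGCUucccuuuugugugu
miR-295-3p: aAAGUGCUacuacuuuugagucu
miR-291b-3p: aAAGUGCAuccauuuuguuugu
miR-293-3p: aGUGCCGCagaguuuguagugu
For Larp7:
miR-302b-3p: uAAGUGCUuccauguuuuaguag
miR-302d-3p: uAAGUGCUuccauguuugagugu
miR-367-3p: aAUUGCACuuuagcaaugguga
For Mcm7:
miR-106b-5p: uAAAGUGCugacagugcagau
miR-93-5p: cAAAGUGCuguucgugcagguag
miR-25-3p: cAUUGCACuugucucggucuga
The seed AAGUGCU is held by 5 of these 11 sequences, from Nlrp12 and Larp7, and AAAGUGC, the same run moved by 1 base, by the 2 from Mcm7. The seed AUUGCAC is shared by miR-367-3p of Larp7 and miR-25-3p of Mcm7.

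The hairpins from which such miRNAs are cut are shown for 1 member of each stem cell cluster, with the annotated mature arms in capitals. Mir294 spans chr7:3220641-3220724 on the plus strand, opposite to Nlrp12, and Mir302b spans chr3:127545228-127545301 on the plus strand, opposite to Larp7.
Mir294: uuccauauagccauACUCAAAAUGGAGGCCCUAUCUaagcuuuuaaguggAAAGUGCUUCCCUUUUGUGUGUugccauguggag
Mir302b: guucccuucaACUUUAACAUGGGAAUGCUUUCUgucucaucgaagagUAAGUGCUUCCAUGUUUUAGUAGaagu

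Nlrp12, a receptor of the NOD-like family known from innate immune cells, showed by far the widest range of levels among the 37 genes. Its span (chromosome 7, 3218784 to 3249740, minus strand) holds 7 hairpins, all at the far end of the gene, 28.9 to 30.7 kb from its start, and all overlap an annotated exon. Of these, 6 are on the opposite strand and Mir292b is on that of Nlrp12. Mir290a, the first hairpin of the cluster, lies 76 bases outside the span. The counts over Nlrp12 were 200.4 and 191.3 CPM in E518K, 403.8 and 368.5 CPM in KO, and 12.81 and 13.98 CPM in wt. The 3 groups did not overlap, with wt lowest, KO highest and E518K between them. Libraries did not overlap for 62.0% of the 16498 genes tested in E518K against wt, 81.7% in KO against wt and 80.5% in E518K against KO, so separation alone was common. The log2 difference was 3.87 ± 0.08 (SE) between E518K and wt, 4.85 ± 0.09 between KO and wt, and -0.98 ± 0.07 between E518K and KO (n = 2 libraries per group here and below). Myadm, the next gene of the table at 39.3 kb, was lower in both groups than in wt, with log2 changes of -0.31 ± 0.06 in E518K and -0.45 ± 0.06 in KO (edgeR adjusted p = 0.0146 and 8.54e-04).

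**Figure D1:**
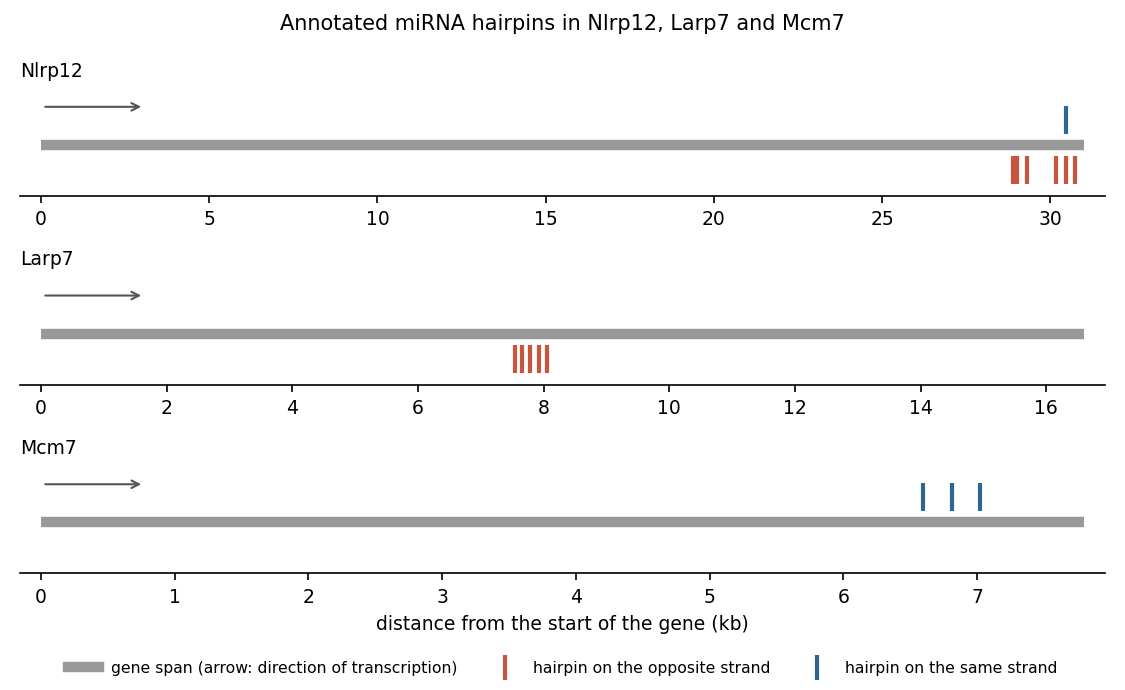
Positions of annotated miRNA hairpins (ticks) along the spans of Nlrp12, Larp7 and Mcm7 (grey bars), with the distance from the start of each gene in kb on the horizontal axis and the strand of each hairpin by colour and side. The 7 hairpins of Nlrp12 sit 28.9 to 30.7 kb from its start, the 5 of Larp7 at 7.54 to 8.05 kb on the opposite strand, and the 3 of Mcm7 at 6.60 to 7.02 kb on its own strand.

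Larp7 encodes the protein that binds and stabilises the 7SK RNA, a regulator of transcription elongation. Its span (chromosome 3, 127536714 to 127553349, minus strand) holds the 4 hairpins of miR-302a to miR-302d and that of miR-367, all in introns and on the opposite strand. Larp7 stood at 99.3 and 107.4 CPM in E518K, 136.2 and 134.4 CPM in KO, and 76.7 and 71.1 CPM in wt. The groups kept the order seen for Nlrp12, again without overlap. Relative to wt, Larp7 rose by 0.48 ± 0.07 on the log2 scale in E518K (edgeR adjusted p = 0.00536) and by 0.87 ± 0.07 in KO (adjusted p = 1.11e-04). It was lower in E518K than in KO, with a log2 change of -0.39 ± 0.07 (adjusted p = 0.00448). The call in E518K against wt was lost without E518K clone 15 (0.44, adjusted p = 0.0565), while the difference from KO was no longer called without KO library 1 (-0.38, adjusted p = 0.056) or with the KO libraries summed (adjusted p = 0.0501). Zgrf1, which starts 0.1 kb from Larp7, did not pass in either comparison with wt (0.23 ± 0.15 in E518K and 0.27 ± 0.15 in KO). Ank2, 37.4 kb away on the other side, rose in KO by 1.92 ± 0.30 (adjusted p = 0.00154).

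Mcm7, a subunit of the replicative helicase, holds the miR-106b, miR-93 and miR-25 hairpins on its own strand in a span of 7.8 kb (chromosome 5, 138164583 to 138172422, minus strand). It was the most abundant of the 37 genes per kilobase of span, with mean deposited TPM values, which are scaled by length, of 540 in E518K, 536 in KO and 423 in wt. Its levels were 667.7 and 664.6 CPM in E518K, 605 and 622.3 CPM in KO, and 493.4 and 504.6 CPM in wt. Unlike Nlrp12 and Larp7, Mcm7 had its highest libraries in E518K. It rose in E518K against wt by 0.42 ± 0.05 (edgeR adjusted p = 0.00357) and in KO against wt by 0.30 ± 0.05 (adjusted p = 0.00269), while E518K and KO differed by 0.12 ± 0.05 (adjusted p = 0.113). Cops6 and Ap4m1 overlap Mcm7 and can share its reads. Neither passed as higher against wt. Cops6 stood at 0.19 ± 0.08 in E518K (adjusted p = 0.103) and -0.08 ± 0.08 in KO against wt. Its E518K libraries (172.7 and 163.8 CPM) lay above those of wt (155.9 and 138.5 CPM). Ap4m1 stood at -0.03 ± 0.07 in E518K and -0.26 ± 0.07 in KO against wt (adjusted p = 0.0147 for the last). Both Cops6 and Ap4m1 were higher in E518K than in KO (0.27 ± 0.08 and 0.23 ± 0.07, adjusted p = 0.0238 and 0.0333).

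**Figure D2:**
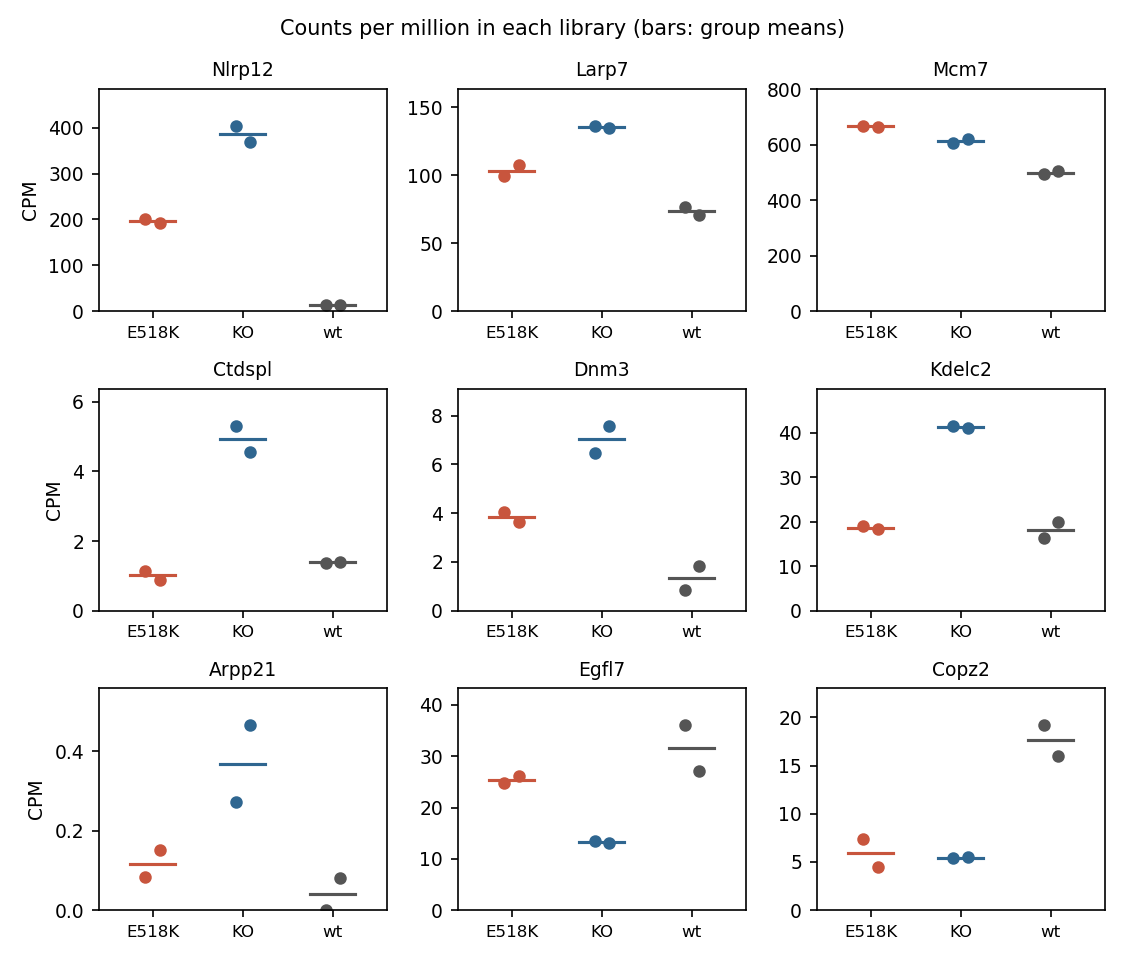
Normalised counts (CPM) in each library (points) and group means (bars) for 9 genes that hold miRNA hairpins, with E518K, KO and wt along the horizontal axis and a separate linear scale for each gene. Nlrp12 and Larp7 lie between wt and KO in E518K, whereas Ctdspl and Kdelc2 are high only in the KO libraries and Copz2 is high only in the wt libraries of these 6.

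The other genes with every hairpin on the opposite strand were the dynamin genes Dnm2 and Dnm3, Kdelc2 and Iars2. Dynamins are GTPases that pinch vesicles from membranes. Dnm3, whose span of 495.6 kb (chromosome 1, 161982453 to 162478034, minus strand) holds the hairpins of miR-199a-2 and miR-214, stood at 4.05 and 3.62 CPM in E518K, 6.466 and 7.595 CPM in KO, and 0.855 and 1.83 CPM in wt. It had the order of Nlrp12, with no overlap. Dnm3 rose by 1.52 ± 0.33 in E518K (edgeR adjusted p = 0.019) and by 2.39 ± 0.33 in KO (adjusted p = 9.55e-04), each against wt. The wt clones differed in Dnm3, and without clone 16, the higher of them, these values grew to 2.16 and 3.03. Their size thus depended on the wt clone, and the values of the main fit are not a lower bound. The call in E518K was lost without clone 8 (1.43, adjusted p = 0.101), without clone 15 (1.61, adjusted p = 0.105) and with limma on log2(TPM + 1) (0.04, adjusted p = 0.132). E518K and KO differed by -0.87 ± 0.31 (adjusted p = 0.0585).

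Dnm2, with the miR-199a-1 hairpin, stood at 149.6 and 141.1 CPM in E518K, 207.5 and 207.9 CPM in KO, and 146.8 and 132.9 CPM in wt. Its E518K and wt libraries overlapped. It rose in KO by 0.57 ± 0.07 (edgeR adjusted p = 5.74e-04), whereas E518K differed from wt by 0.06 ± 0.07 (adjusted p = 0.598) and was lower than KO by a log2 change of -0.52 ± 0.07 (adjusted p = 0.00148). Tmed1, which overlaps Dnm2, fell in KO (-0.48 ± 0.09). Kdelc2 (chromosome 9, 53384025 to 53401867, plus strand), a glucosyltransferase of the endoplasmic reticulum, holds Mir130c where it overlaps an exon. It stood at 18.9 and 18.4 CPM in E518K, 41.6 and 41.0 CPM in KO, and 16.3 and 20.0 CPM in wt. Only its KO libraries were high. Kdelc2 rose in KO by 1.19 ± 0.11 (adjusted p = 1.86e-04) and was lower in E518K than in KO by a log2 change of -1.15 ± 0.11 (adjusted p = 4.62e-04), with 0.04 ± 0.11 between E518K and wt (adjusted p = 0.816). Both neighbours of Kdelc2 also rose in KO: Exph5 by 2.28 ± 0.36 (adjusted p = 0.00166) and the DNA damage kinase gene Atm by 0.57 ± 0.19 (adjusted p = 0.0391). Iars2, the mitochondrial isoleucyl-tRNA synthetase with the hairpins of miR-194-1 and miR-215, rose in KO by 0.19 ± 0.06 (adjusted p = 0.0331), a call lost in 7 of 13 alternatives, among them without either KO library or either E518K clone (adjusted p up to 0.216). Rab3gap2, which overlaps Iars2, rose in KO by 0.50 ± 0.08.

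In KO against wt, all 5 genes with every hairpin on the opposite strand rose, with a median log2 change of 0.87, where 27.4% of the 16498 genes tested rose and the median was -0.025. The call of Iars2 was lost in 7 of 13 alternatives, and Rab3gap2, which overlaps Iars2 and can share its reads, also rose. In E518K against wt 2 of the 5 rose (Larp7 and Dnm3, whose calls were each lost in some alternatives, as given above), with a median of 0.06, where 11.3% of all genes rose. Among the other 30 genes without Nlrp12 and Arpp21, 12 rose and 9 fell in KO, with a median of 0.10. The split by strand was not tested, since the genes were chosen with results known. Over the whole table, 982 further genes held an annotated hairpin. Of those tested, 78 of 230 with hairpins on the opposite strand alone rose and 68 fell in KO, with a median of 0.10. Of 700 with a hairpin on their own strand, 214 rose and 221 fell, with a median of -0.02.

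Several of the listed genes are paralogs that hold hairpins of the same miRNA family, and their mature sequences show how closely these match. The capitals again mark the seed.
miR-26a-5p, in Ctdspl and Ctdsp2: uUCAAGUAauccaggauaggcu
miR-26b-5p, in Ctdsp1: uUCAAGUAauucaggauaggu
miR-107-3p, in Pank1: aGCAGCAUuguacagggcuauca
miR-103-3p, in Pank3: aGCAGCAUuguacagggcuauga
miR-148b-3p, in Copz1: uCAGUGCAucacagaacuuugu
miR-152-3p, in Copz2: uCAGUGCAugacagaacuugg
miR-218-5p, in Slit2 and Slit3: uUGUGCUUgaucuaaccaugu
miR-199a-3p, in Dnm2 and Dnm3: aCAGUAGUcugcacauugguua
miR-128-3p, in Arpp21 and R3hdm1: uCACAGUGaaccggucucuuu
The other mature sequences belong to genes that changed by at least 2-fold.
miR-214-3p, in Dnm3: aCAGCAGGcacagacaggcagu
miR-130c, in Kdelc2: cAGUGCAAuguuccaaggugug
miR-126a-3p, in Egfl7: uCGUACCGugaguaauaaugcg

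The 3 Ctdsp genes encode small phosphatases that act on the C-terminal domain of RNA polymerase II, and they moved in different directions. Ctdspl (chromosome 9, 118926453 to 119043998, plus strand) holds its hairpin in an intron. It stood at 1.152 and 0.892 CPM in E518K, 5.32 and 4.55 CPM in KO, and 1.38 and 1.41 CPM in wt. Only its KO libraries were high. Ctdspl rose in KO against wt by 1.82 ± 0.22 (edgeR adjusted p = 5.42e-04) and was lower in E518K than in KO by a log2 change of -2.27 ± 0.23 (adjusted p = 5.01e-04), with -0.45 ± 0.23 between E518K and wt (adjusted p = 0.197). Vill, 8.8 kb from Ctdspl, also rose in KO (2.28 ± 0.23, adjusted p = 2.31e-04), whereas Itga9 on the other side rose in E518K (1.09 ± 0.11, adjusted p = 0.00176) and stood at -0.13 ± 0.11 in KO.

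Ctdsp1 stood at 60.7 and 54.5 CPM in E518K, 82.5 and 76.5 CPM in KO, and 58.2 and 50.7 CPM in wt, and it rose in KO against wt by 0.55 ± 0.10 (edgeR adjusted p = 0.00248). It was lower in E518K than in KO (-0.47 ± 0.10, adjusted p = 0.00744), a call lost without E518K clone 15, without KO library 1 and with the KO libraries summed (adjusted p = 0.0719, 0.0749 and 0.0502). Ctdsp2 stood at 257.4 and 241.6 CPM in E518K, 237.1 and 233.7 CPM in KO, and 347.9 and 291.2 CPM in wt. It was lowest in KO and highest in wt, with log2 changes of -0.36 ± 0.09 in E518K (adjusted p = 0.0295) and -0.44 ± 0.09 in KO (adjusted p = 0.00488) against wt. The call in E518K was lost in 6 of 13 alternatives, among them without either E518K clone (adjusted p = 0.0983 and 0.204) and without either KO library (adjusted p = 0.0736 and 0.0735).

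Pank1 and Pank3 encode pantothenate kinases, which start coenzyme A synthesis, and both rose in KO. Pank1 stood at 42.4 and 39.2 CPM in E518K, 64.4 and 66.0 CPM in KO, and 37.4 and 39.3 CPM in wt. Pank3 stood at 39.4 and 43.6 CPM in E518K, 68.8 and 69.2 CPM in KO, and 46.9 and 51.3 CPM in wt. The KO libraries lay above the other 4 for both genes, and the E518K libraries of Pank3 lay below those of wt. The KO cells exceeded wt by 0.76 ± 0.08 for Pank1 and 0.49 ± 0.08 for Pank3 on the log2 scale (edgeR adjusted p = 2.24e-04 and 0.00204). Relative to KO, E518K was lower for both, by -0.68 ± 0.08 and -0.73 ± 0.08 (adjusted p = 6.93e-04 and 7.15e-04), and neither passed in E518K against wt (0.09 ± 0.08 and -0.24 ± 0.08, adjusted p = 0.427 and 0.0705).

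Copz1 and Copz2 encode alternative zeta subunits of the COPI coat, which carries vesicles from the Golgi to the endoplasmic reticulum. Copz1 stood at 167.1 and 164.9 CPM in E518K, 98.4 and 100.3 CPM in KO, and 159.3 and 150.8 CPM in wt. Copz2 stood at 7.36 and 4.47 CPM in E518K, 5.39 and 5.48 CPM in KO, and 19.2 and 16.0 CPM in wt. Copz2 lies on chromosome 11, 96849870 to 96861203, plus strand. The paralogs differed in the place of E518K, which was near wt for Copz1 and near KO for Copz2. Relative to wt, Copz1 fell in KO (-0.64 ± 0.06, edgeR adjusted p = 1.87e-04). It was higher in E518K than in KO (0.74 ± 0.06, adjusted p = 2.94e-04), with 0.10 ± 0.06 between E518K and wt (adjusted p = 0.269). Copz2 fell in E518K (-1.57 ± 0.23, adjusted p = 0.00548) and in KO (-1.70 ± 0.23, adjusted p = 8.95e-04) against wt, and E518K and KO differed by 0.12 ± 0.23 (adjusted p = 0.702). It was the largest decrease among the 37 genes in both comparisons. Of its neighbours, Nfe2l1 did not pass (-0.12 ± 0.07 in E518K and -0.15 ± 0.07 in KO), and Cdk5rap3 fell in KO (-0.80 ± 0.11).

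Slit2 and Slit3 encode secreted ligands of Robo receptors and were low in all groups. Slit2 stood at 7.52 and 5.51 CPM in E518K, 4.80 and 4.56 CPM in KO, and 7.49 and 8.17 CPM in wt. Slit3 stood at 3.39 and 3.62 CPM in E518K, 3.34 and 3.99 CPM in KO, and 5.86 and 6.09 CPM in wt. Slit2 was lower in KO than in wt (-0.74 ± 0.18, edgeR adjusted p = 0.011) but did not pass in E518K (-0.26 ± 0.18, adjusted p = 0.321), and the 2 differed by 0.48 ± 0.18 (adjusted p = 0.073). Slit3 fell in E518K (-0.77 ± 0.17, adjusted p = 0.0199) and in KO (-0.71 ± 0.17, adjusted p = 0.0101). The call of Slit2 was lost without either KO library (adjusted p = 0.0614 and 0.081), that of Slit3 in KO without KO library 1 (adjusted p = 0.115), and that of Slit3 in E518K without any 1 of the E518K or KO libraries (adjusted p from 0.0567 to 0.107).

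**Figure D3:**
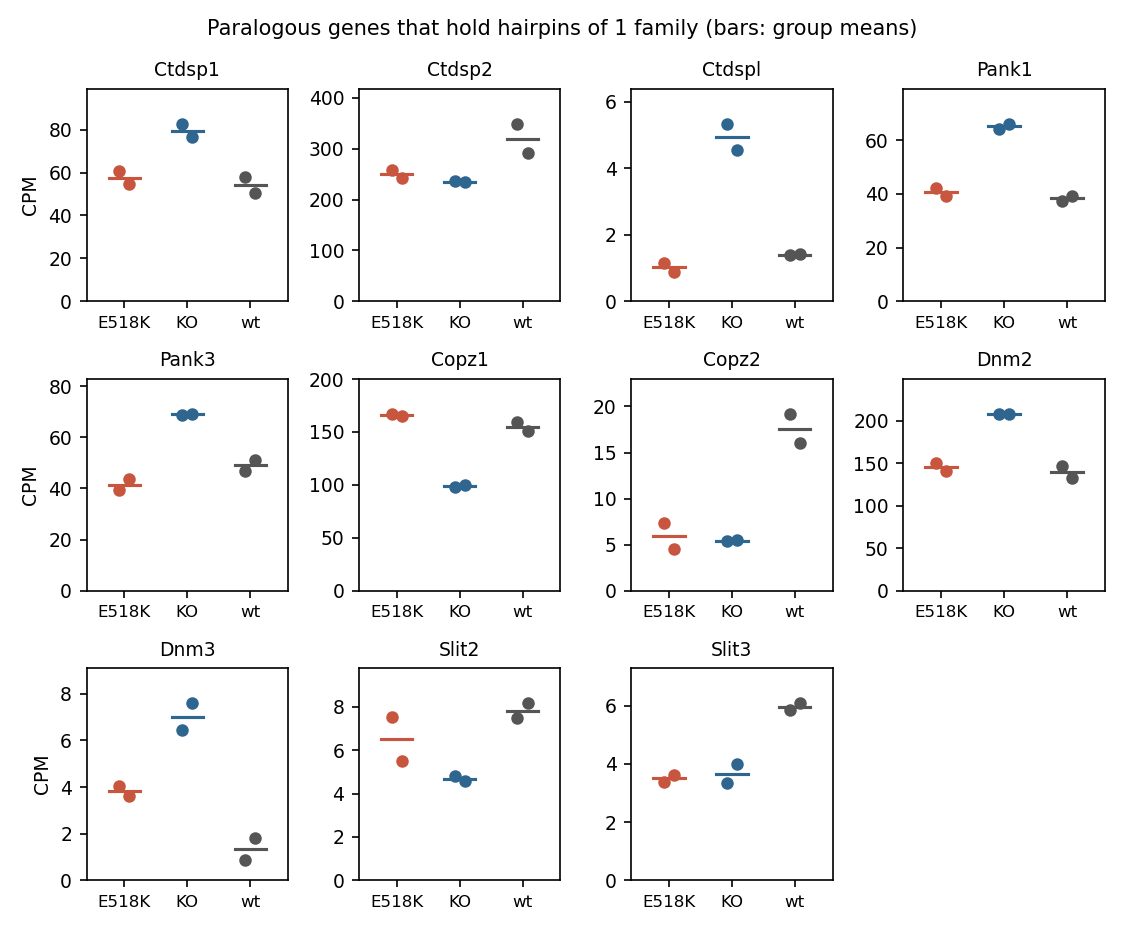
Normalised counts (CPM) in each library (points) and group means (bars) for paralogous genes that hold hairpins of the same miRNA family, with E518K, KO and wt along the horizontal axis and a separate linear scale for each gene. E518K lies near wt for Copz1, Pank1 and Dnm2 and near KO for Copz2, Ctdsp2 and Slit3.

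Arpp21, a phosphoprotein of neurons, and R3hdm1, its relative with an R3H RNA-binding domain, both hold a miR-128 hairpin in an intron. Arpp21 had 6 and 11 counts in E518K, 21 and 36 in KO, and 0 and 6 in wt, the lowest counts among the 37 genes. The 0 of wt clone 12 allows up to 3 counts, or 0.0414 CPM, from counting error alone. Arpp21 passed the expression filter only because of its KO libraries, so its difference is given as a description with no test. The fitted log2 difference between KO and wt was 3.12, and it was 2.16 without wt clone 12 and 7.78 without wt clone 16. R3hdm1 stood at 111.7 and 113.3 CPM in E518K, 107.2 and 108.7 CPM in KO, and 100.6 and 110.7 CPM in wt, and passed in none of the 3 comparisons (adjusted p = 0.365 to 0.716).

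Egfl7 (chromosome 2, 26580014 to 26593120, plus strand), a secreted factor of endothelial cells and the host of miR-126a, stood at 24.9 and 26.1 CPM in E518K, 13.5 and 13.1 CPM in KO, and 36.1 and 27.2 CPM in wt. It fell in KO against wt by 1.25 on the log2 scale (SE 0.14, edgeR adjusted p = 3.69e-04) and was higher in E518K than in KO by 0.94 ± 0.14 (adjusted p = 0.00198). Between E518K and wt the log2 change was -0.31 ± 0.14, which did not pass (adjusted p = 0.137). The wt clones differed in Egfl7, and this value was -0.09 without wt clone 12 and -0.50 without wt clone 16. Its size thus depended on the wt clone, and the main fit does not show Egfl7 to be unchanged in E518K. Agpat2 overlaps Egfl7 and can share its reads, and it fell in E518K (-0.55 ± 0.14, adjusted p = 0.0275) and in KO (-0.79 ± 0.14, adjusted p = 0.00232). Fam69b, 35.3 kb away, fell in E518K (-0.998 ± 0.17) and in KO (-1.01 ± 0.17), whereas Notch1 on the other side rose in KO (1.03 ± 0.07).

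Smc4 and Ska2, genes of chromosome segregation, were higher in KO. Smc4, a condensin subunit with the hairpins of miR-15b and miR-16-2, averaged 111.2 ± 12 CPM in E518K, 163 ± 2.8 CPM in KO and 93.6 ± 1.7 CPM in wt (SD). Ska2, a kinetochore protein with the miR-301 hairpin, averaged 41.6 ± 5.9 CPM in E518K, 55.8 ± 5.0 CPM in KO and 29.7 ± 4.7 CPM in wt. For both, E518K lay between KO, the highest, and wt, the lowest, without overlap. Smc4 rose by 0.80 ± 0.08 and Ska2 by 0.91 ± 0.14 in KO relative to wt (edgeR adjusted p = 2.73e-04 and 0.00155). Ska2 also passed in E518K against wt, at 0.48 ± 0.14 (adjusted p = 0.0478), a call lost in 9 of 13 alternatives (adjusted p up to 0.259, without E518K clone 15), and Smc4 did not pass (0.25 ± 0.08, adjusted p = 0.0669). Against KO, E518K was lower for Smc4 (-0.55 ± 0.08, adjusted p = 0.00203) and for Ska2 (-0.43 ± 0.14, adjusted p = 0.0455), and the call of Ska2 was lost without any 1 of the E518K or KO libraries (adjusted p from 0.0607 to 0.261).

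Lpp, Evl, Chm and Ptk2 rose in KO and Tln2 fell. Lpp, a zyxin relative with the miR-28a hairpin, averaged 176.2 ± 5.2 CPM in E518K, 231.1 ± 1.7 CPM in KO and 146.7 ± 4.0 CPM in wt. It rose in E518K by 0.26 ± 0.06 and in KO by 0.66 ± 0.06 against wt (edgeR adjusted p = 0.0203 and 1.6e-04), and the call in E518K was lost in 7 of 13 alternatives, among them without any 1 of the E518K or KO libraries (adjusted p from 0.0591 to 0.112). Evl, an actin regulator with the miR-342 hairpin, rose in KO by 0.75 ± 0.13 (adjusted p = 0.00203), and Degs2, which overlaps it, by 0.84 ± 0.13. Chm, an escort protein of Rab GTPases with the miR-361 hairpin, rose in KO by 0.91 ± 0.12 (adjusted p = 7.62e-04). Ptk2, the focal adhesion kinase with the miR-151 hairpin, rose in KO by 0.26 ± 0.07 (adjusted p = 0.0135), a call lost without either KO library (adjusted p = 0.105 and 0.111). Tln2, a talin with the miR-190a hairpin, fell in KO by 0.70 on the log2 scale (SE 0.11, adjusted p = 0.00147). In E518K against KO, Evl (-0.50 ± 0.13), Chm (-0.59 ± 0.12) and Lpp (-0.39 ± 0.06) were lower and Tln2 (0.43 ± 0.11) was higher. Of these last calls that of Lpp remained in all alternatives, whereas those of Evl, Chm and Tln2 were lost in 4, 2 and 5 of 13.

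Clcn5, Rcl1 and Rnf130 each passed in KO, and none of the 3 calls held in all alternatives. Clcn5, a chloride and proton exchanger with 5 hairpins on its own strand on chromosome X, averaged 8.69 ± 0.03 CPM in E518K, 11.4 ± 0.5 CPM in KO and 15.1 ± 2.5 CPM in wt. It fell in E518K (-0.80 ± 0.14, edgeR adjusted p = 0.00943) and in KO (-0.41 ± 0.14, adjusted p = 0.0375) against wt. The call in E518K was lost without either E518K clone (adjusted p = 0.0628 and 0.0853), and that in KO in 7 of 13 alternatives, among them without wt clone 12 (-0.24, adjusted p = 0.104) and without any 1 of the E518K or KO libraries. Rcl1, a factor of ribosomal RNA processing with the miR-101b hairpin, fell in KO (-0.36 ± 0.07, adjusted p = 0.00338), a call lost without KO library 3 (adjusted p = 0.0568), and was higher in E518K than in KO (0.50 ± 0.07, adjusted p = 0.0014). Rnf130, a ubiquitin ligase with the miR-340 hairpin, rose in KO (0.65 ± 0.20, adjusted p = 0.0253), a call lost in 6 of 13 alternatives, among them without any 1 of the E518K or KO libraries (adjusted p up to 0.119).

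Nfyc, a subunit of the transcription factor NF-Y with the hairpins of miR-30c-1 and miR-30e, was higher in E518K than in both other groups. It stood at 100.4 and 91.8 CPM in E518K, 69.6 and 69.7 CPM in KO, and 76.7 and 73.3 CPM in wt, with log2 changes of 0.36 ± 0.07 against wt (edgeR adjusted p = 0.0137) and 0.46 ± 0.07 against KO (adjusted p = 0.00216). The call against wt was lost in 6 of 13 alternatives, among them without any 1 of the E518K or KO libraries (adjusted p from 0.051 to 0.0737). Vmp1, an autophagy protein of the endoplasmic reticulum with an exon that overlaps the miR-21a hairpin, passed in E518K against wt at 0.23 ± 0.07 (adjusted p = 0.0484), a call lost in 9 of 13 alternatives (adjusted p up to 0.328). The ubiquitin ligase genes Huwe1 and Wwp2, the splicing factor gene Zranb2, the coactivator gene Ppargc1b, the channel gene Trpm3 and the sperm gene Spaca6 passed in none of the 3 comparisons. Their log2 changes lay between -0.36 (Spaca6, E518K against wt) and 0.26 (Ppargc1b, KO against wt), and Huwe1, with the let-7f-2 and miR-98 hairpins, averaged 513.9 ± 8.4 CPM in E518K, 505.4 ± 10.5 CPM in KO and 541.8 ± 73.5 CPM in wt.

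Over the 35 genes other than Nlrp12 and Arpp21, each of which passed the expression filter whichever group was set aside, 26 passed in KO against wt, where 57.2% of all genes tested did. Of these, 17 rose and 9 fell, beside 27.4% and 29.7% of all genes. The median log2 change was 0.19 over the 35 genes and -0.025 over all genes tested. At least a 2-fold change was reached by 3 that rose (Dnm3, Ctdspl and Kdelc2) and 2 that fell (Copz2 and Egfl7), against 11.6% and 10.0% of all genes. Of the 26 calls, 19 held in all 13 alternatives, with the other 7 named above.

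In E518K against wt, 11 of the 36 genes other than Nlrp12 passed, beside 23.7% of all genes. Of these, 7 rose and 4 fell, beside 11.3% and 12.5%. Dnm3 rose and Copz2 fell by at least 2-fold, as did 2.30% and 4.34% of all genes. The median was 0.09, against -0.016 over all genes. Scaling by the upper quartile gave 5 and 5, and limma on log2(TPM + 1) gave 2 and 3. Among the calls over all genes, 47.5% were higher here, 37.5% after upper-quartile scaling and 27.8% by limma. Of the 11 calls, those of Mcm7 and Copz2 held in all 13 alternatives. Leaving out E518K clone 15 left 2 calls among the 36, beside 3.78% of all genes in the same fit, and leaving out E518K clone 8 left 4, beside 9.68%. Without KO library 1 or KO library 3 there were 5 calls, beside 11.2% and 11.3% of all genes, and without wt clone 16 there were 17, beside 41.2%. The number among the 36 thus moved in the same direction as the number over all genes.

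In E518K against KO, 17 of the 35 passed, beside 41.8% of all genes. Of these, 5 were higher and 12 lower, beside 22.0% and 19.8% of all genes, with a median of -0.14 against -0.016. Among the calls over all genes, 52.7% were higher here and 41.0% by limma on log2(TPM + 1). At least a 2-fold difference was reached by Ctdspl and Kdelc2, both lower in E518K, where 6.44% of all genes were lower and 3.97% higher to this degree. Of the 17 calls, 11 held in all 13 alternatives. The comparisons share libraries, so their counts are not independent of each other.

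**Figure D4:**
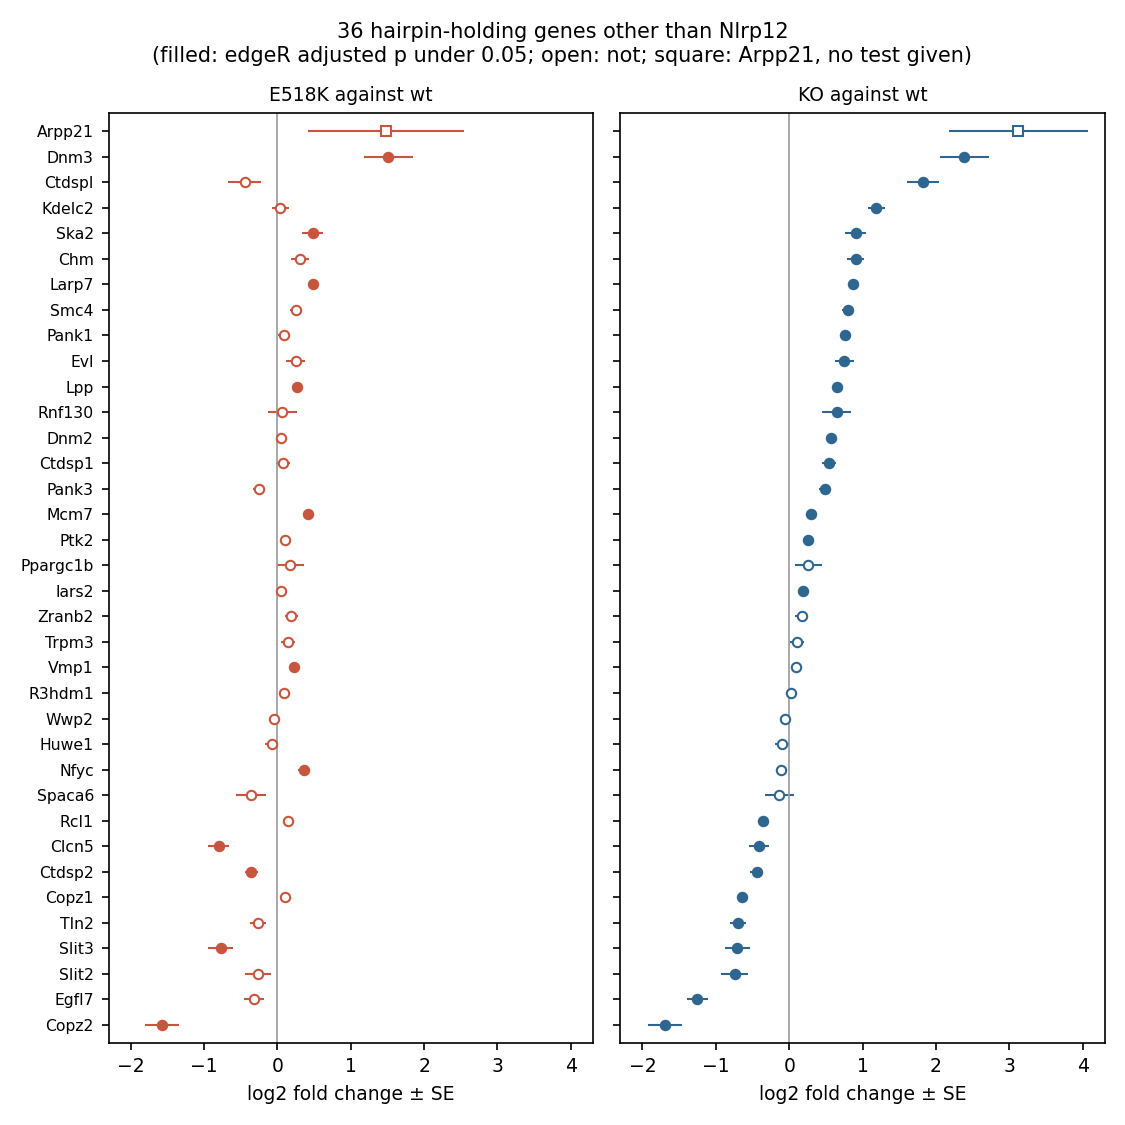
Log2 fold changes with their standard errors for 36 hairpin-holding genes other than Nlrp12, ordered by the change in KO, in E518K against wt (left) and KO against wt (right). Filled points have an edgeR adjusted p under 0.05, which were 7 higher and 4 lower in E518K and 17 higher and 9 lower in KO, open points do not, and the square is Arpp21, given without a test.

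The E518K libraries were not always between the others. Both lay above all KO and wt libraries for 6 of the 37 genes (Mcm7, Vmp1, Copz1, Rcl1, Nfyc and R3hdm1), as for 11.0% of all genes, and below all of them for 3 (Ctdspl, Pank3 and Clcn5), as for 11.4% of all genes. These positions describe the order of the libraries, and the tests of each gene against both groups are those given above.

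As a comparison list, 5 genes linked to hairpins known to be made without the Microprocessor, or with little need of it, were measured. Abcf1, Pkd1 and Vwa5b2 hold an annotated hairpin in their span, whereas Polr3d and Nde1 hold none in the annotation used. Pkd1 rose in KO (0.92 ± 0.07, edgeR adjusted p = 9.89e-05), Abcf1 and Nde1 fell (-0.54 ± 0.08 and -0.48 ± 0.07), and Vwa5b2 and Polr3d did not pass, with a median of -0.17. In E518K against wt Polr3d was higher and Pkd1 lower (adjusted p = 0.0358 and 0.0377). Of 6 genes for later or partner steps of miRNA maturation, Dicer1 rose in KO (0.38 ± 0.08, adjusted p = 0.00634), Tarbp2 and Xpo5 fell (-0.32 ± 0.06 and -0.23 ± 0.07), and Drosha, Prkra and Ago2 did not pass. In E518K against wt Tarbp2 was higher (adjusted p = 0.0145) and the other 5 did not pass.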

How the data were processed

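Counts were the deposited raw whole-number counts per gene symbol, with no normalization by the authors as far as the values show. The deposited TPM values were scaled by the authors to the same sum in each library after division by 1 length per gene. The submitters' processing notes list STAR, bedtools and GRCm38.p6 but no settings. The length implied by counts and TPM was within 5% of the genomic span for 98.5% of 14258 genes and for 36 of the 37 genes described. Hairpins were miRNA genes of GENCODE M21 lying within a span, and 19797 symbols had 1 locus.

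Counts were tested with edgeR 4.0.16 in R 4.3.3 (TMM, filterByExpr at a minimum count of 10, robust quasi-likelihood F test, group as the only term, all 6 libraries), which left 3 residual degrees of freedom and 16498 genes. Adjusted p values (Benjamini and Hochberg, threshold 0.05) run over all of them. CPM used TMM factors, and errors of log2 changes are standard errors from the fit. Alternatives used other factors, no filter, DESeq2 1.42.0, limma 3.58.1 on log2(TPM + 1), fewer libraries and summed KO libraries. With 1 library left out, the lone library of its group was assumed to vary like those of the other groups. Counting without Arpp21 was chosen after seeing the data. Libraries within a group differed by more than sampling noise (chi-square per degree of freedom 21.6 in E518K, 3.55 in KO and 51.4 in wt). The p values rest on the spread within groups, pooled for each gene over all 6 libraries. Both KO libraries carry 1 clone number, so the KO part of this spread may be technical.

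The genes and lists were chosen with earlier results of these data known. Values in every library are given for Nlrp12, Larp7 and Mcm7, for genes that passed with at least a 2-fold change in any comparison, and for paralogous hosts. Nfyc was added after its values were seen, for its place in E518K. Neighbours are named for only some of these genes.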

Additional observations from a re-analysis of the deposited data

How the results depend on the processing

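No paired analysis was possible because the groups share no replicate numbers. Across the 13 alternatives none of the called changes of a single gene turned its direction. Some genes not called in the main fit were called in an alternative, and apart from Pank3 they are not named here. A gene that did not pass is therefore not shown to be unchanged. In E518K against wt the number of called genes among the 36 was 11, against 5 with limma on log2(TPM + 1), 6 with only the 4 libraries compared and 5 with the KO libraries summed, and it ranged from 2 to 17 when 1 library was left out. Over all genes in that comparison it was 3917, against 1999 with only the 4 libraries and 1909 with the KO libraries summed, and from 644 to 6987 with 1 library left out. With the KO libraries summed, 6163 of all genes passed in KO against wt (main 9429) and 3267 in E518K against KO (main 6902), with leave-one-out ranges of 6084 to 10958 and 3285 to 9482. Among the listed genes the number called in these comparisons with KO also moved with the library left out. It is not given, since it counts Arpp21, which passed the expression filter only because of its KO libraries. Log2(TPM + 1) understates changes of genes with low TPM by its construction: Dnm3 in KO against wt stood at 0.11 there and at 2.39 in counts. Nlrp12 stood at 3.41 in E518K and 4.48 in KO against wt, and at -1.07 in E518K against KO, on that scale. Depth limits Arpp21 most, the 1 gene with under 50 counts in every library, whereas 33 of the 37 genes had at least 200 counts in each. Counts were also low for Dnm3 (62 to 586 over the libraries), Ctdspl (65 to 411) and Spaca6 (176 to 266). The KO libraries carry 1 clone number and their cells were not transfected, unlike the E518K and wt cells. In comparisons with KO, DGCR8 state, clone and transfection therefore cannot be told apart. E518K and wt had 2 clones each, which leaves little information on differences between clones.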
